A study of Mus musculus with 6 samples.

Results

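Estrogen receptors, the related orphan receptors and the proteins that work with them were examined in RNA sequencing of mouse embryos at the early 2-cell stage. The 10 genes are Esr1, Esr2, Gper1, Esrra, Esrrb, Ncoa1, Ncoa2, Ncoa3, Nrip1 and Greb1, taken by symbol from the 55549 rows of each gene table, and each has 1 row in every table. Embryos of the EtP group were exposed from 4 h after fertilization to 40 uM ethylparaben, a preservative ester with weak estrogenic activity, and most of them stopped at this stage, per the series' text. Control embryos are the comparison group, and there were 3 libraries of each. The labels name neither a mouse strain or genotype, nor the medium or vehicle of the controls, nor the hour of collection or the number of embryos in a library. Nor do they say whether libraries stem from separate cultures, so a p-value weighs a difference against a spread between libraries that may be technical.

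Estrogen receptors alpha (Esr1) and beta (Esr2) are transcription factors that bind estradiol, pair up on DNA at estrogen response elements and recruit coactivators. The p160 coactivators (Ncoa1, Ncoa2 and Ncoa3) dock on the hormone-bound receptor and bring in histone acetyltransferases such as CREBBP, while NRIP1 docks on the same surface and represses. Gper1 is a membrane receptor coupled to G proteins that responds to estrogens. The estrogen-related receptors (Esrra, Esrrb and the non-member Esrrg) resemble the estrogen receptors but are not activated by estradiol, and Esrrb is known for its part in keeping mouse embryonic stem cells undifferentiated. GREB1 is a cofactor of the estrogen receptor and an early estrogen-induced gene in human breast cancer cells.

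An expected count is the number of sequenced fragments that the authors estimated for a gene, and TPM (transcripts per 1000000) divides that estimate by transcript length and scales every library to the same sum. Totals were 11906206 to 14512216 expected counts in EtP libraries and 11173295 to 14737152 in control libraries. Scaling matters for every result given here. TMM factors, which correct for a different make-up of the RNA, were 0.738 to 0.833 in EtP and 1.198 to 1.385 in control libraries, and dropping them shifts the median log2 fold change of all 14373 genes tested by -0.73, to -0.92 from -0.19. All 12 markers of oocytes and early embryos were detected in every library and took 16867 to 18218 TPM in EtP and 11026 to 11927 TPM in control libraries. Cumulus cell markers summed to 7.31 to 9.89 TPM in EtP, with 3 to 4 of 12 detected, and to 14.5 to 24.3 TPM in control, with 6 to 8 detected. The cumulus genes Amh and Ptx3 were at 0 in all libraries. Markers of sperm summed to 5.10 to 7.04 TPM in EtP, with 3 of 8 detected, and to 21.5 to 32.7 TPM in control, with 3 to 5 detected. Markers of oviduct epithelium summed to 11.6 to 18.3 TPM in EtP, with 4 of 7 detected, and to 14.1 to 25.5 TPM in control, with 5 to 7 detected. The most abundant markers were Bmp15 and Bcl2l10 of the oocyte, with means of 10369 and 6288 CPM (counts scaled to a common depth with TMM factors) in EtP and 3002 and 3073 CPM in control. Those of other cells were Cyp19a1 and Fshr for cumulus cells (17.1 and 0.524 CPM in EtP, 22.2 and 1.64 in control), Prm2 and Odf1 for sperm (2.71 and 0.198 in EtP, 7.44 and 0.706 in control), and Cdh1 and Epcam for oviduct (43.4 and 0.801 in EtP, 20.4 and 2.57 in control). Single genes made up most of these 3 sums: Cyp19a1, Prm2 and Cdh1 averaged 7.97, 5.75 and 13.2 TPM in EtP and 15.3, 23.8 and 11.5 TPM in control. In the oviduct list Cdh1 was called higher by edgeR, and Epcam and Krt18 lower. The sums are thus no measure of a cell type as a whole. The part of these other cell types in the results was not tested. In bulk libraries fewer cells that hold a transcript and less of it per cell cannot be told apart.

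Of the 5 receptors, Esr2, Esr1 and Esrrb were present in all 6 libraries, and Gper1 and Esrra were at or near 0. Esr2 was by far the most abundant estrogen receptor transcript. In TPM it averaged 47.3 ± 10.5 in EtP and 70.7 ± 9.93 in control, while Esr1 averaged 6.65 ± 1.64 in EtP and 11.6 ± 6.20 in control (SD, n = 3 each). Gper1 averaged 0.183 TPM in EtP and 0.223 TPM in control, and Esrra was at 0 in EtP against 0.19 TPM in control. All of the coactivators were present, with Ncoa3 and Ncoa2 well above Ncoa1.

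**Figure D1:**
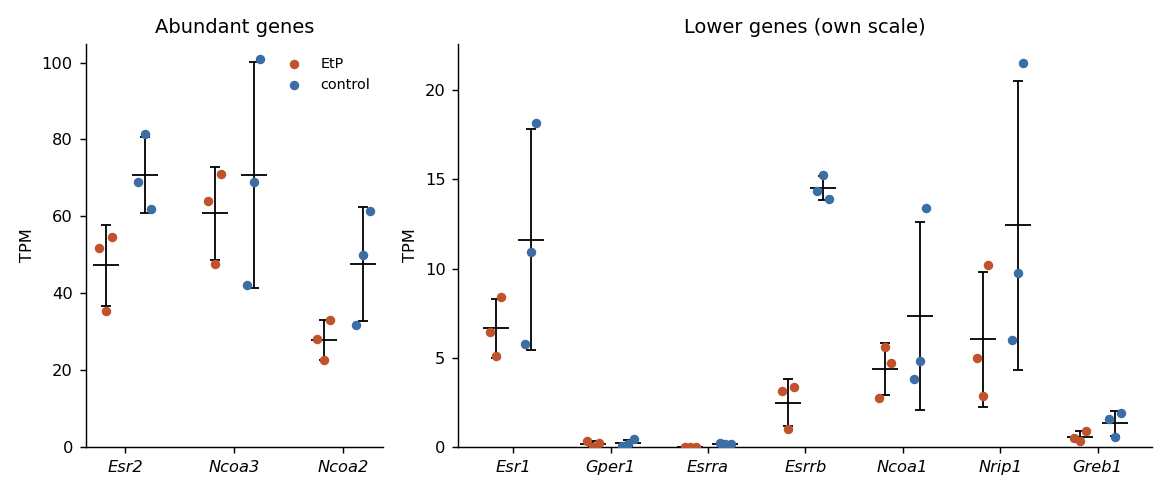
TPM of the 10 genes in each library. Points are libraries (EtP left, control right for each gene), horizontal lines are means and bars are SD (n = 3 each), and the lower genes on the right have their own scale. Esr2, Ncoa3 and Ncoa2 stand above the other genes, and the EtP and control points of Esr2, Esrrb and Esrra do not overlap. Of all rows with a mean of at least 1 TPM, 48.4% likewise had all EtP values below all control values. Esrra is below that mean.

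Against the other nuclear receptors, Esr2 stood near the top. Among 49 nuclear receptor genes with a row, 18 had a mean of at least 1 TPM in EtP and 23 in control, and 1 was at 0 in all libraries. By mean TPM, Esr2 ranked 2 in both groups, behind Nr2e1, an orphan receptor best known from neural stem cells, which averaged 159 TPM in EtP and 204 TPM in control. Nr6a1, the germ cell nuclear factor, ranked 3 in both groups. Esr1 ranked 9 in EtP and 10 in control. Esrrb ranked 14 in EtP and 7 in control, by TPM that moved with its length estimate, as given below. In TMM-scaled CPM its means were 4.11 in EtP and 6.86 in control. Esrra ranked 43 in EtP and 32 in control.

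**Figure D2:**
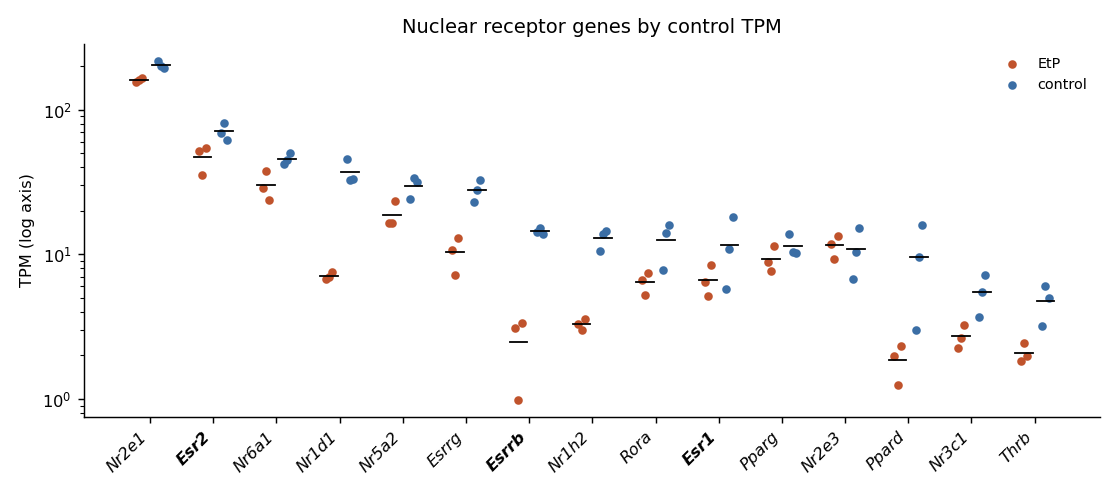
TPM on a log axis of the 15 nuclear receptor genes with the highest mean in control embryos, with EtP left and control right for each gene. Points are libraries, lines are means, and members are in bold. Esr2 is second to Nr2e1 in both groups, and the 3 EtP points of Esrrb lie between 0.99 and 3.36 TPM, below control points of 13.9 to 15.2 TPM. The TPM of Esrrb moved with its length estimate.

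Among the 8 members that passed the filter on low counts, none was called between EtP and control by edgeR's quasi-likelihood test at an adjusted p under 0.05, neither higher nor lower. Over all genes tested 30.6% were called, 12.5% higher and 18.1% lower in EtP. At an unadjusted p under 0.05 there were 2 members, Esrrb and Ncoa3, against 42.4% of all genes. DESeq2 called 1 member, Ncoa3, where it called 32.4% of all genes, and limma-voom called 0 members, where it called 29.7%. The median log2 fold change of the 8 members was 0.07, beside -0.19 over all genes tested. With library size as the only scaling, Esr2, Esrrb and Ncoa1 were called lower, beside 53% of all genes called lower and 3.79% called higher.

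**Figure D3:**
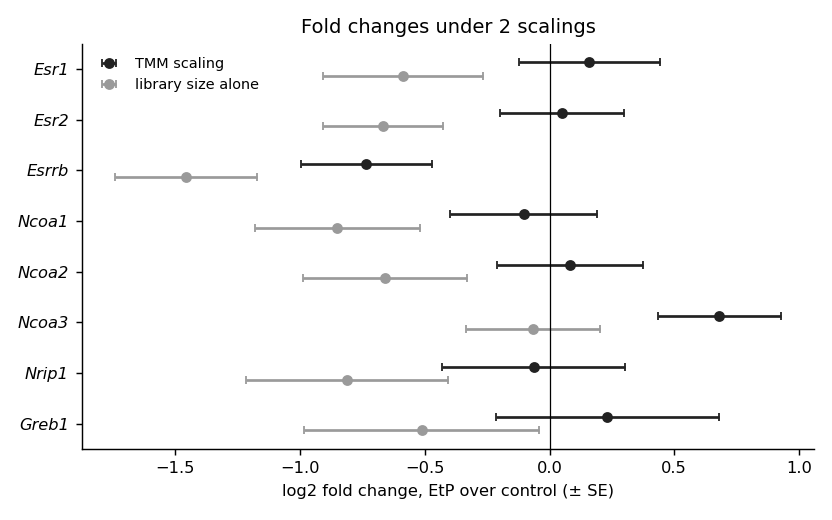
Log2 fold changes, EtP over control, of the 8 members that passed the filter, with bars of 1 SE, under TMM scaling (black) and with library size alone (grey). Every grey point lies left of its black one, and only Esrrb and Ncoa3 have black points more than 0.5 from 0, at -0.74 and 0.68.

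Esr2 encodes estrogen receptor beta and lies on the minus strand at chr12:76120419-76177259 (GENCODE M21, mouse assembly GRCm38). Its expected counts were 1583, 927 and 1647 in EtP libraries 1 to 3, against 2442, 2644 and 1419 in control libraries 1 to 3. The ranges overlap through control library 3, which had the smallest total. In TPM the values were 51.9, 35.3 and 54.7 in EtP, against 69.0, 81.4 and 61.8 in control. All EtP values in TPM lie below all control values, with a ratio of 0.668. An exact two-sided permutation test gave p = 0.1, the smallest that 3 against 3 libraries allow. Among the 13585 rows with a mean of at least 1 TPM, 48.4% likewise had all EtP values below all control values, so the absence of overlap is near what the whole table shows. In TMM-scaled CPM the groups overlapped: 153, 102 and 136 in EtP against 147, 140 and 92.1 in control. The edgeR log2 fold change was 0.05 ± 0.25 (SE), with a 95% interval of -0.50 to 0.60 and an adjusted p of 0.901. It was -0.67 with library size alone, edgeR adjusted p = 0.0347. That is smaller than the median of all genes under that scaling.

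The Esr2 reads were assigned to a single transcript. The deposited length column gives, for each gene and library, the mean length of its transcripts weighted by their estimated abundance. It lay within the shortest and longest annotated transcript for 100% of genes with several transcripts and a value above 0. For Esr2 it was 3001 to 3002 bases in all 6 libraries, the length of the protein-coding Esr2-203 (3001 bases, coding length 1590). The other 4 annotated transcripts have 3169 to 3362 bases. From these bounds Esr2-203 made up at least 99.2% of Esr2 transcripts in EtP and at least 99.2% in control libraries, by the authors' estimate. Esr2-203 begins at chr12:76167715, 9544 bases downstream of chr12:76177259, where each of the other annotated Esr2 transcripts begins. The lengths overlap between the groups (exact permutation p = 0.7).

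Esr1, estrogen receptor alpha, lies on the plus strand at chr10:4611593-5005614. Its expected counts were 200, 135 and 244 in EtP, against 192, 285 and 342 in control. TPM were 6.44, 5.12 and 8.38 in EtP, against 5.78, 10.9 and 18.1 in control (exact permutation p = 0.3). Both measures overlap, since control library 1 was as low as the EtP libraries. The edgeR log2 fold change was 0.16 ± 0.28 (SE; 95% interval -0.47 to 0.79, adjusted p = 0.702), and it was -0.59 with library size alone (adjusted p = 0.132). The abundance-weighted length of Esr1 did not overlap: it was 2906 to 3052 bases in EtP and 2430 to 2828 bases in control (exact permutation p = 0.1, the smallest possible). Of 6405 genes with several transcripts and at least 50 counts in every library, 25.2% had lengths that do not overlap between the groups, 13.2% with longer transcripts in EtP. Annotated Esr1 transcripts run from 719 to 6339 bases, and the mean alone does not say which of the 10 differed.

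Of the summed TPM of Esr1 and Esr2, Esr2 took 89.0, 87.3 and 86.7% in EtP and 92.3, 88.1 and 77.3% in control libraries. The 2 groups overlap in this share, and control library 3, with the most Esr1, is the lowest of the 6.

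Gper1, the membrane receptor, had expected counts of 3, 0 and 5 in EtP, against 2, 5 and 8 in control, and did not pass the filter. With 8 counts in EtP and 15 in control, the ratio of its TMM-scaled sums was 0.863, with a 95% counting interval of 0.317 to 2.17 that covers counting error only. A change of about 2-fold in either direction was thus not detectable at this depth. Esrra, which in other tissues drives genes of oxidative metabolism, had no count in any EtP library, against 7, 3 and 3 counts in control. With 3 counts allowed for the 0 over the EtP group, Esrra was at least 2.68-fold lower in EtP by TMM-scaled counts. This bound takes the 13 control counts as exact. Fewer genes were detected in EtP in general: 19244 to 19613 had at least 1 count in EtP libraries, against 25861 to 26004 in control. How many scarce genes had counts in control alone was not computed. Exons of Esrra overlap those of Trmt112 on the other strand, a gene with up to 3495 expected counts in a library. The protocol does not mark strand, so reads in the overlap cannot be assigned to either gene with certainty.

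Of the member receptors that passed the filter, Esrrb had the largest log2 fold change in either direction under TMM scaling, but was not called. Outside the members, the receptors Nr1d1, Nr1h2 and Esrrg fell further, with edgeR log2 fold changes of -1.95, -1.08 and -0.76. The expected counts of Esrrb were 40, 37 and 53 in EtP, against 120, 130 and 100 in control. In TPM it had 3.11, 0.99 and 3.36 in EtP, against 14.4, 15.2 and 13.9 in control. All EtP values lie below all control values on both scales, and the control libraries agree closely with each other. In TMM-scaled CPM it had 3.86, 4.09 and 4.39 in EtP, against 7.2, 6.88 and 6.49 in control. Groups that do not overlap in CPM are common here: 46.8% of all genes tested, with 27.9% lower and 19% higher in EtP.

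The size of the Esrrb difference depended on the unit. By counts the edgeR log2 fold change was -0.74 ± 0.26 (SE), which is 0.601 of control, with a 95% interval of -1.32 to -0.15 and an adjusted p of 0.0564, just over the threshold. By TPM the ratio was 0.172 (2.49 ± 1.30 in EtP against 14.5 ± 0.666 in control, SD, n = 3 each), with an exact permutation p of 0.1, the smallest possible. On the log2(TPM + 1) scale limma gave -2.23 with an adjusted p of 0.00108 over all rows with a mean of at least 1 TPM. The share of these rows that limma called was not computed, and 48.4% of them had all EtP values below all control values. Upper-quartile scaling (-0.81, edgeR adjusted p = 0.0396) and library size alone (-1.46, edgeR adjusted p = 0.00179) also put it past the threshold. Those settings called 31.3% and 56.8% of all genes in either direction. The direction was lower in EtP in all 15 alternatives in which it was tested on counts, from -1.46 to -0.60, but only 2 of them called it. DESeq2 gave an adjusted p of 0.104, and edgeR gave 0.0898 with RLE scaling and 0.210 with no filter. Leaving out each library in turn gave edgeR adjusted p of 0.0869 to 0.214.

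The TPM of Esrrb moved with its length estimate. The abundance-weighted length was 1336, 4196 and 1644 bases in EtP, against 804, 881 and 1035 bases in control, so that the same number of fragments gave more TPM in control. The shortest of the 6 annotated Esrrb transcripts is Esrrb-205, with 694 bases and no coding sequence, and the next has 1344 bases. A mean below 1344 bases is possible only with Esrrb-205, which by this bound made up at least 83.1, 71.2 and 47.5% of Esrrb transcripts in control libraries 1 to 3. In EtP the bounds were 1.24 to 82.2% in library 1, 0 to 2.88% in library 2 and 0 to 73.7% in library 3. The value of EtP library 2, 4196 bases, is the length of the protein-coding Esrrb-203. These estimates rest on 37 to 130 counts in a library, below the 50 set as a minimum in 2 EtP libraries, so no test was made.

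Esrrb lies on the plus strand at chr12:86361117-86521628, and Esrrb-205 has 4 exons inside it, at chr12:86504409-86504523, chr12:86505815-86505925, chr12:86506349-86506510 and chr12:86509662-86509967. Exons 2 and 3 are shared with each of the other 5 Esrrb transcripts. Exons 1 and 4 overlap no exon of another Esrrb transcript, and reads in them separate Esrrb-205 from the coding transcripts. Exon 1 is printed here because it is the stretch by which the short transcript can be looked for (115 bases, plus strand, from the GENCODE M21 transcript sequences, with no capitals since no motif is marked).
Esrrb-205 exon 1: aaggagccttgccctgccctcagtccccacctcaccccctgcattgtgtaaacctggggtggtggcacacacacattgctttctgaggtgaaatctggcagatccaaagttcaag

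**Figure D4:**
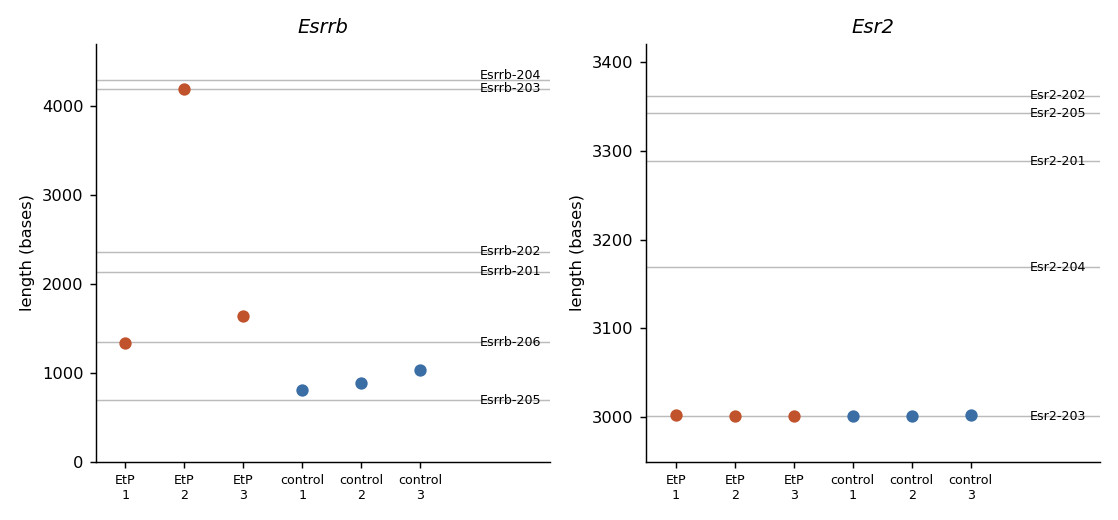
Abundance-weighted transcript length in bases of Esrrb (left panel) and Esr2 (right panel) in each library, from the deposited length column. Grey lines are the lengths of the annotated transcripts, and the Esr2 axis does not start at 0. Esrrb lies at 1336 to 4196 bases in EtP and at 804 to 1035 bases in control, while Esr2 lies on Esr2-203 in every library.

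The third estrogen-related receptor, Esrrg, is not among the 10 genes but was the most abundant of its kind. It had 10.7, 7.22 and 13 TPM in EtP, against 22.8, 27.9 and 32.6 TPM in control. The groups do not overlap, and Esrrg was called lower by edgeR, by 0.76 ± 0.23 on the log2 scale (SE), at an adjusted p of 0.0277. Both are common here. Of all genes tested 18.1% were called lower, and 48.4% of rows with a mean of at least 1 TPM had all EtP values below all control values.

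Ncoa3 was the most abundant of the 3 p160 coactivators and, of the 8 members tested, had the highest log2 fold change under TMM scaling. It lies on the plus strand at chr2:165992636-166073242. Expected counts were 4098, 2933 and 4796 in EtP, against 2646, 4852 and 4332 in control, which overlap. TPM also overlap, with 63.9, 47.5 and 71.1 in EtP against 42.2, 69.0 and 101 in control (exact permutation p = 0.8). With TMM scaling the groups separated: CPM were 396, 324 and 397 in EtP, against 159, 257 and 281 in control. The edgeR log2 fold change was 0.68 ± 0.25 (SE; 95% interval 0.13 to 1.23), or 1.60-fold, with an adjusted p of 0.0590. With library size alone it was -0.07 (edgeR adjusted p = 0.841), so its direction is set by the scaling.

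The side of the threshold on which Ncoa3 fell also changed. It was called higher with RLE scaling in edgeR (0.78, adjusted p = 0.0316, beside 14.4% of all genes called higher) and by DESeq2 (0.78, adjusted p = 0.0133). Leaving out control library 1 gave 0.57 (edgeR adjusted p = 0.0225), and leaving out control library 3 gave 0.89 (edgeR adjusted p = 0.0212), both past the threshold. Those 2 fits called 37% and 31.3% of all genes in either direction. Exons of Ncoa3 overlap those of Sulf2 on the other strand, which had at most 241 expected counts in a library.

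Ncoa2, a coactivator also of the glucocorticoid receptor, had 28.0, 22.6 and 33.0 TPM in EtP, against 31.7, 49.8 and 61.3 TPM in control. Control library 1 lies among the EtP values (exact permutation p = 0.2). In CPM with TMM scaling Ncoa2 had 68.2, 65.4 and 94.2 in EtP, against 44.5, 76.1 and 94.8 in control, and the edgeR log2 fold change was 0.08 ± 0.29 (SE, adjusted p = 0.855). Ncoa1 was the least abundant of the p160 genes, with 2.76, 5.62 and 4.71 TPM in EtP, against 3.79, 4.83 and 13.4 TPM in control. Its mean in control rests on library 3. The edgeR log2 fold change of Ncoa1 was -0.10 ± 0.30 (SE, adjusted p = 0.817), and -0.85 with library size alone (adjusted p = 0.0454), near the median of all genes under that scaling.

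The p160 genes were also compared as shares of their sum, as a description with no test. Shares of summed TPM do not depend on the scaling between libraries. Ncoa3 took 67.5, 62.7 and 65.4% of the p160 TPM in EtP, against 54.3, 55.8 and 57.5% in control. Ncoa2 took 29.6, 29.9 and 30.3% in EtP, against 40.8, 40.3 and 34.9% in control. The shares of Ncoa3 and of Ncoa2 do not overlap between the groups, while those of Ncoa1, at 2.92 to 7.42% in EtP and 3.90 to 7.62% in control, do. Absence of overlap is common over the whole table, as given for TPM and CPM above, and its frequency among shares of this kind was not computed.

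**Figure D5:**
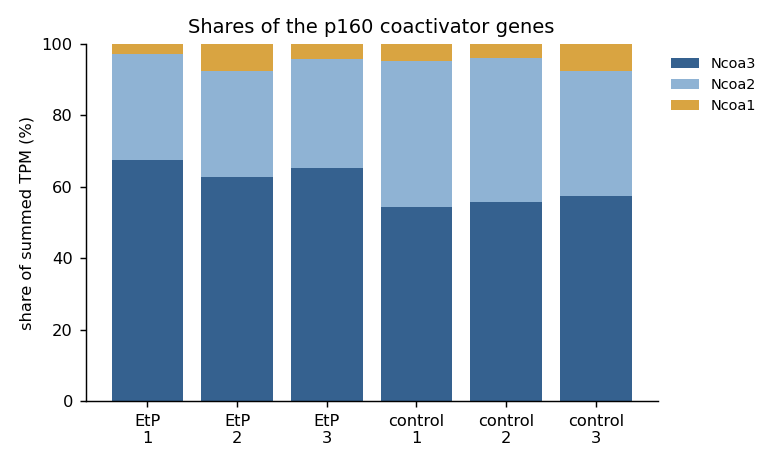
Share in percent of the summed TPM of Ncoa1, Ncoa2 and Ncoa3 in each library, stacked to 100, with EtP libraries left of control libraries. The Ncoa3 segment ends at 62.7 to 67.5% in EtP and at 54.3 to 57.5% in control.

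These shares rest on lengths that differ between transcripts of a gene. The abundance-weighted length of Ncoa3 was 6176 to 6887 bases in EtP and 5224 to 6350 bases in control, and that of Ncoa2 was 2505 to 3418 bases in EtP and 2028 to 3110 bases in control. Both ranges overlap between groups (exact permutation p = 0.2 for Ncoa3 and 0.5 for Ncoa2). Full-length coding transcripts of Ncoa2 are over 4000 bases long. From the mean lengths they could be at most 46.5 to 66.9% of Ncoa2 transcripts in EtP and at most 35.9 to 60.1% in control, the rest being shorter ones, most of which are annotated as retained introns. For Ncoa3 the transcripts over 4000 bases made up at least 79.8 to 90.4% in EtP and at least 65.6 to 82.4% in control. Their upper bound was 100% in each EtP library and in control library 2, and 89.8 and 94.9% in control libraries 1 and 3. The TPM of Ncoa2 therefore counts more than full-length messages in every library. For Ncoa3 the bounds require this in control libraries 1 and 3 only.

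Nrip1, the corepressor that docks on hormone-bound receptors, had 4.99, 2.87 and 10.2 TPM in EtP, against 6, 9.75 and 21.5 TPM in control. The values overlap widely (exact permutation p = 0.3). The edgeR log2 fold change was -0.06 ± 0.37 (SE, adjusted p = 0.912), with a 95% interval of -0.88 to 0.75, which leaves room for changes of that size in either direction. Its expected counts of 95 to 241 in EtP and 147 to 364 in control are enough to say that it was present in every library.

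Greb1, the estrogen-induced cofactor, was scarce, with expected counts of 43, 18 and 53 in EtP, against 41, 33 and 75 in control. In TPM it had 0.52, 0.33 and 0.90 in EtP, against 1.54, 0.54 and 1.91 in control. The values overlap (exact permutation p = 0.2), and the edgeR log2 fold change was 0.23 ± 0.45 (SE, adjusted p = 0.728). The mean transcript length was 7940, 6098 and 5746 bases in EtP, against 2305, 5551 and 5033 bases in control. These lengths rest on 18 to 75 counts in a library, so no test was made.

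RefSeq promoter windows (GRCm38.p6, 250 bases before to 50 bases after a start) were at hand for 8 of the 10 genes, 12 windows in all. The full estrogen response element, searched as GGTCANNNTGACC, was in none of them and in 0.07% of 32851 windows. The single-arm site AGGTCA, to which the estrogen-related receptors and other nuclear receptors bind, searched on both strands, was in 1 member window, that of Greb1, and in 16.3% of all windows. The estrogen-related receptor element TCAAGGTCA, which contains that site, was in 0 member windows and in 0.423% of all. The window of Greb1 (chr12:16800837-16801136, minus strand) is printed because it is the one that holds the single-arm site. Capitals mark that site, which reads TGACCT on this strand, and the bases CCAAT, which here lie downstream of the annotated start. CCAAT was in 5 of the 12 member windows and in 37.4% of all windows. Each match is a description of the sequence and no evidence of binding. This window covers the annotated start of the gene. A coding Greb1 transcript of 7940 bases, equal to the mean length in EtP library 1, begins at chr12:16757241, 43645 bases downstream of that start. Which start was used in these embryos was not tested.
Greb1 promoter: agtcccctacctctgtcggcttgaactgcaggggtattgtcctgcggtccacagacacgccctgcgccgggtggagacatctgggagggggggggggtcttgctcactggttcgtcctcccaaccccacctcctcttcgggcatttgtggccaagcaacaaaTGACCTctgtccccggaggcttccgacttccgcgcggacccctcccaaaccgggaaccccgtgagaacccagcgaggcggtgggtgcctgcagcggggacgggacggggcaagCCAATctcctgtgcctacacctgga

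By mean TPM the order in EtP was Ncoa3, Esr2, Ncoa2, Esr1, Nrip1, Ncoa1, Esrrb, Greb1, Gper1 and Esrra. In control it was Esr2, Ncoa3, Ncoa2, Esrrb, Nrip1, Esr1, Ncoa1, Greb1, Gper1 and Esrra. Neighbours in EtP whose ranges do not overlap were Esr2 over Ncoa2, Ncoa2 over Esr1, and Esrrb over Greb1. In control they were Ncoa2 over Esrrb, Ncoa1 over Greb1, and Greb1 over Gper1. All other neighbours overlap, and their order is within the spread of the libraries.

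The genes most like the 2 most abundant members in their pattern over the 6 libraries were found by the root mean square distance of centred log2 CPM, among 5976 genes. Ncoa3 was closest to Rabgap1 (0.0371), Klf17 (0.0607) and Sema4d (0.0614), where the median gene lay at 0.504. Esr2 was closest to Zfp563 (0.102), Lrrcc1 (0.113) and Mfsd13b (0.117), where the median gene lay at 0.492. These distances are a description over 6 libraries that share their scaling.

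Of the other nuclear receptors, 23 of 45 passed the filter, with 1 called higher and 3 lower by edgeR and a median log2 fold change of -0.30. Over all genes tested 12.5% were called higher and 18.1% lower. Nr2e3, a photoreceptor nuclear receptor, rose to 19.0 ± 2.43 CPM in EtP against 10.2 ± 2.62 CPM in control (edgeR adjusted p = 0.026). Nr1d1, the circadian repressor REV-ERB alpha, fell to 13.9 ± 0.475 CPM in EtP against 53.5 ± 22.4 CPM in control (edgeR adjusted p = 0.000981). Nr1h2, the oxysterol receptor LXR beta, also fell, by 1.08 ± 0.29 on the log2 scale (SE, edgeR adjusted p = 0.0168), and Esrrg is given above. With library size alone 0 were called higher and 16 lower, and Nr2e3 was at 0.16.

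Of the other coactivators, 24 of 27 passed the filter, with 4 called higher and 1 lower and a median of 0.26. Beside these counts, 12.5% of all genes tested were called higher and 18.1% lower. Rbm39, which coactivates estrogen receptors and takes part in splicing, rose to 162 ± 31.2 CPM in EtP against 74.7 ± 7.25 CPM in control (edgeR adjusted p = 0.00373). The RNA helicase Ddx5 rose by 0.61 ± 0.21 on the log2 scale (SE, edgeR adjusted p = 0.0465), and the ubiquitin ligase Ube3a by 0.70 ± 0.23 (edgeR adjusted p = 0.0441). Crebbp, the acetyltransferase that p160 proteins recruit, had 192 ± 61.0 CPM in EtP and 114 ± 23.0 CPM in control (edgeR adjusted p = 0.0547). The other 2 called, Ppargc1b (higher) and the arginine methyltransferase Carm1 (lower), fall outside the rule for named genes and were chosen after their values were seen. With library size alone none of this list was called higher and 4 were called lower, and Ddx5 and Ube3a turned to -0.13 and -0.04.

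All 18 corepressor genes passed the filter, with 3 called higher and 2 lower and a median of 0.13. These counts are near the shares over all genes tested, 12.5% higher and 18.1% lower. Safb2, which represses estrogen receptor alpha, rose to 10.4 ± 1.78 CPM in EtP against 3.24 ± 0.672 CPM in control (edgeR adjusted p = 0.00188). The scaffold Sin3a and its partner deacetylase Hdac1 rose by 0.63 ± 0.20 and 0.98 ± 0.28 on the log2 scale (SE, edgeR adjusted p = 0.0344 and 0.0241). Phb2, a mitochondrial prohibitin that also represses the estrogen receptor, fell to 8.63 ± 0.662 CPM in EtP against 20.3 ± 5.72 CPM in control (edgeR adjusted p = 0.00684). Mta2, the other gene called lower, was chosen after its values were seen. Scaled by library size alone, 1 was called higher and 6 lower, and Sin3a turned to -0.10.

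The chaperones that hold steroid receptors ready for hormone had the most calls of the 7 pathway lists: 7 of 14 were higher and 0 lower by edgeR, with a median of 0.57, where 12.5% of all genes were called higher and the median was -0.19. Of the 12 oocyte and early embryo markers, 9 were called higher and none lower (median 1.02), and their part in this count was not tested. The inducible HSP90 gene Hsp90aa1 rose to 2551 ± 359 CPM in EtP against 688 ± 224 CPM in control (log2 fold change 1.89 ± 0.26, SE, edgeR adjusted p = 0.000522). Hspa8, the constitutive HSP70 gene, rose by 1.22 ± 0.22 (edgeR adjusted p = 0.0025), the kinase co-chaperone Cdc37 by 1.07 ± 0.22 (adjusted p = 0.00501) and the ubiquitin ligase Stub1 by 1.36 ± 0.23 (adjusted p = 0.00183). With library size alone 1 of the 14, Hsp90aa1, remained called higher (1.17, edgeR adjusted p = 0.00151), and the median was -0.16, so the rise of the list as a whole depends on the scaling.

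Of 25 genes known as estrogen targets in other tissues, 13 passed the filter, with 2 called higher and 3 lower and a median of -0.59. Among all genes tested 12.5% were called higher and 18.1% lower. Pdzk1, a scaffold protein, rose to 142 ± 11.2 CPM in EtP against 44.2 ± 6.60 CPM in control (edgeR adjusted p = 0.000308), and the endoplasmic reticulum chaperone Hspa5 rose to 151 ± 4.04 CPM in EtP against 53.7 ± 4.73 CPM in control (edgeR adjusted p = 0.000405). Both were also called higher with library size alone, at 0.94 and 0.76, beside 7 of the list called lower. The small heat shock gene Hspb1 fell to 3.30 ± 0.690 CPM in EtP against 7.75 ± 0.755 CPM in control (edgeR adjusted p = 0.00931). Igfbp4, a binding protein of insulin-like growth factors, had 7.80 ± 1.52 CPM in EtP and 4.43 ± 1.03 CPM in control (edgeR adjusted p = 0.0636). Myc and the retinoic acid hydroxylase gene Cyp26a1, chosen after their values were seen, had no count in EtP, against 54 and 53 counts in control. With 3 counts allowed over the EtP group they were at least 11.1-fold and 10.9-fold lower in EtP, with the control counts taken as exact. Fewer genes had a count in EtP than in control libraries, as given for Esrra.

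Of 10 genes for factors that act with estrogen receptors on DNA, 6 passed the filter, with 0 called higher and 1 lower, Tfap2a, which was chosen after its values were seen. Gata3 stood at 0.42 ± 0.25 on the log2 scale (SE, edgeR adjusted p = 0.232), and Tfap2c, Sp3 and Sp1 had -0.44, -0.41 and -0.09 (edgeR adjusted p = 0.255, 0.409 and 0.837). Of 15 genes of estrogen synthesis and metabolism with a row, 5 passed the filter and 0 were called lower. Beside both lists, 12.5% of all genes tested were called higher and 18.1% lower. Cyp19a1, the aromatase that makes estrogens and also a cumulus cell marker, had 17.1 ± 1.42 CPM in EtP and 22.2 ± 11.7 CPM in control (edgeR adjusted p = 0.436). The dehydrogenase genes Hsd17b4 and Hsd17b7 had log2 fold changes of 0.54 and 0.13 (edgeR adjusted p = 0.16 and 0.742). Scaled by library size alone, 5 of the DNA-binding partners and 2 of the synthesis genes were called lower and none higher.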

How the data were processed

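Per the labels' protocols, Smart-seq2 (oligo-dT priming, no strand mark) was used on polyadenylated RNA, with paired-end sequencing. The submitters' processing notes name cutadapt 1.16, STAR and mm10; how fragments were counted is not given in the sources used here. Each deposited expected count is an estimated count that need not be whole, and was rounded before testing. The deposited TPM, and the FPKM that was not used, are the authors' values scaled for length and depth, and the deposited length is the mean transcript length weighted by abundance; no read counts per transcript were used.

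EtP and control (3 libraries each) were compared with edgeR 4.0.16 in R 4.3.3: filterByExpr, TMM, robust quasi-likelihood, group as the only term, Benjamini-Hochberg adjusted p under 0.05 over all genes tested. TPM and lengths were compared by exact two-sided permutation tests, with limma 3.58.1 on log2(TPM + 1) as an alternative; lengths only where all libraries had at least 50 counts. CPM are TMM-scaled and values are mean ± SD. Counting intervals and the 3 counts that a 0 allows cover counting error only, and reads carry no molecular identifiers. Libraries of a group differed by more than sampling noise.

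GENCODE M21, on the same assembly, gave positions and transcripts and held all 10 members at the same ID version. Promoters came from RefSeq.

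The members and gene lists were chosen with earlier results of these data known. Named genes were the members; per list up to 4 tested genes ranked by p, with a mean of 5 CPM or more; for markers the 2 with the highest mean; and the 3 genes most like each of the 2 most abundant members (mean of at least 10 CPM, prior count 2). A gene that the rule selects is not reported here. Scaling by RLE, by upper quartile or by library size alone, no filter, a filter of at least 10 CPM in 3 libraries, DESeq2 1.42.0, limma-voom, a block for replicate number, leaving out mitochondrially encoded genes or each library in turn and, for TPM, a pseudocount of 0.1 or no filter were tried as alternatives. Leaving out rows that lack an Ensembl ID was chosen after seeing the data. Matplotlib 3.10.9 drew the figures.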

Additional observations from a re-analysis of the deposited data

How the results depend on the processing

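With library size alone the log2 fold changes were -0.59 for Esr1, -0.67 for Esr2, -0.66 for Ncoa2, -0.066 for Ncoa3 and -0.51 for Greb1, each opposite to TMM scaling, while Esrrb (-1.46) and Ncoa1 (-0.85) joined Esr2 past the threshold, 3 members in all. That setting called 545 genes higher and 7617 lower, and 4 higher and 38 lower in the pathway lists. With at least 10 CPM in 3 libraries Esr1, Esr2 and Ncoa2 were at -0.10, -0.20 and -0.17, and 978 genes were called higher and 1454 lower, 8 and 3 of them in the lists, from fewer genes tested. Upper-quartile scaling put Esr2 at -0.024 and called 1 member lower, Esrrb (-0.81), beside 31.3% of all genes called in either direction. Nrip1 was at 0.039 by RLE scaling, 0.038 by DESeq2 and 0.014 by limma-voom. Ncoa3 was the 1 member called higher by RLE (0.78), DESeq2 (0.78), with no filter (0.73) and with the replicate block (0.71). Those settings called 30.2, 32.4, 16.2 and 37% of all genes in either direction. With no filter 17 list genes were called lower. On the log2(TPM) scale limma called Esrrb at -2.23, -2.23 with no filter and -2.67 with a pseudocount of 0.1, and the share of all rows it called was not computed. The cause of these changes was not tested.

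Leaving out each library in turn gave log2 fold changes of 0.066 to 0.49 for Esr1, -0.092 to 0.26 for Esr2, -0.75 to -0.60 for Esrrb, -0.21 to 0.23 for Ncoa1, -0.070 to 0.38 for Ncoa2, 0.57 to 0.89 for Ncoa3, -0.29 to 0.40 for Nrip1 and 0.03 to 0.79 for Greb1. It called 1096 to 2637 genes higher and 1659 to 2887 lower, 0 to 1 members higher and 0 lower, and 9 to 27 list genes higher and 6 to 14 lower. Ncoa3 was called without control library 1 or 3. The count of list genes called higher fell to 10, 11 and 9 without EtP library 1, EtP library 3 and control library 2.

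The labels do not say whether replicate numbers pair the libraries. Deviations of same-numbered libraries correlated at 0.13, 0.00 and 0.27, and those of other pairs at -0.23 to 0.11. The replicate block called 2295 genes higher and 3022 lower.

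Depth limits Gper1, Esrra and Greb1 most, and the transcript bounds of Esrrb rest on few counts.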
